A study of Callithrix jacchus with 39 samples.

Results

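The liver maps comprised 4 of the 31 ChIP-seq libraries of the series, H3K27ac replicates 1 and 2 and H3K4me3 replicates 1 and 2, chosen by the tissue named in the library titles. They were set against the libraries of the same mark from colon, heart, kidney, pancreas, skeletal muscle, spleen and stomach, which gave 14 H3K27ac and 13 H3K4me3 libraries, heart having 1 H3K4me3 library. All samples came from Callithrix jacchus, the common marmoset, a small monkey of South America, and the 8 input samples among the 39 listed are not analysed here. No group carried a named treatment, and the labels give no genotype, age, sex or animal. Replicate numbers are not said to be separate animals, so the p-values measure the spread between these tissues and samples only. Values below come from the positions of the called regions alone, on the calJac3 build.

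Liver is built mainly of hepatocytes, which secrete most plasma proteins, make bile and run much of the metabolism of sugars, lipids and foreign compounds, beside smaller numbers of endothelial, stellate, bile duct and resident immune cells. H3K27ac, an acetylation of histone H3, marks active promoters and enhancers, whereas H3K4me3, a methylation of the same histone, sits mainly at promoters. Promoter use is largely shared between tissues, and enhancers carry much of what sets a tissue apart. In bulk tissue, fewer cells of a type and less signal per cell cannot be told apart.

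The labelled tissue was not checked against marker genes, because the analysis had no annotation of genes on calJac3. By shared base pairs, each liver library was most like the other liver library. The Jaccard index, the shared part of 2 maps over their union, was 0.550 between the liver H3K27ac libraries. Between liver and other tissues its mean ran from 0.238 with skeletal muscle to 0.322 with pancreas. For H3K4me3 the index was 0.729 within liver, against 0.528 with skeletal muscle and 0.626 with stomach at the ends of the range. Read totals are not used here, so the depth behind each list is unknown, and absence from a list means that no region was called.

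Liver had the longest H3K27ac lists of the 8 tissues. Its libraries held 46317 and 51554 regions, a mean of 48936 ± 3703 (SD, n = 2), against 33461 ± 4376 in the other tissues (SD, n = 7 tissue means) and 24590 to 40507 in their libraries. Both liver libraries lay above all 14 others, a 1.47-fold difference (log2 0.56). Each tissue comparison used a two-sided exact permutation test over 8 tissue means, which cannot give a p below 0.125 and so cannot pass 0.05. For region number it gave this smallest value (exact permutation p = 0.125, adjusted p = 0.292 over 14 comparisons). The regions covered 40.5 and 47.4 Mb in the liver libraries.

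Liver regions also tended to be long. Their median length was 633 and 670 bp in liver, against 573 ± 34.0 bp in the other tissues (SD, n = 7), and the 498 to 668 bp of the other libraries overlapped the liver values (difference 78.7 bp, exact permutation p = 0.125, adjusted p = 0.292). Among the 24000 longest regions of each library the medians were 1070 and 1260 bp in liver, above the 537 to 1043 bp of the other libraries, a difference of 417 bp. That cut was made on length, so a longer starting list leaves longer regions. These medians are therefore no separate evidence that liver regions are long. Regions of 2 kb or more numbered 3310 and 4054, which was 7.15% and 7.86% of the liver lists. The longest spanned 7678 and 10289 bp.

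A region was called replicated where the other library of the same tissue and mark overlapped it by at least 1 bp. In liver 36442 H3K27ac regions of replicate 1 (78.7%) and 34737 of replicate 2 (67.4%) were replicated. Replicated regions had median lengths of 752 and 925 bp, against 400 and 425 bp for those called in 1 liver library alone. Those single-library calls comprised 9875 and 16817 regions, and 93.3% and 79.9% of them had no H3K4me3. Of all single-library calls 49.99% and 48.9% were found in no other tissue, against 24.1% and 25.3% of replicated regions. These pooled shares are not like for like, because 49.6% and 51.2% of replicated regions had no H3K4me3. Among regions without H3K4me3, 48.2% and 44.3% of single-library calls were found in another tissue, and the majority were found in none. Of replicated regions without H3K4me3, a minority of 42.2% and 42.8% were found in no other tissue. Single-library calls of this class were thus more often unshared than replicated ones. Single-library regions of replicate 1 lay a median of 2095 bp from the nearest region of replicate 2, and those of replicate 2 lay 7653 bp from replicate 1. All shares below are of replicated regions, except that the single heart H3K4me3 library had no second library to replicate it, so all 18231 of its regions were kept.

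Replicated H3K27ac regions were divided by the H3K4me3 map of the same tissue. Those overlapped by H3K4me3 in either library are called promoter-like and the remainder enhancer-like, names that describe the marks and not a tested function. Liver had the highest enhancer-like share, 49.6% (18083 regions) and 51.2% (17794 regions), against 39.2 ± 6.01% in the other tissues (SD, n = 7). No library of another tissue reached the liver values, the range being 28.1% to 46.1%, and the difference was 11.2 percentage points (exact permutation p = 0.25, adjusted p = 0.389). With lists of equal length, the 24000 longest H3K27ac and 16000 longest H3K4me3 regions of each library, the difference was 2.34 points. Liver then had 37.8% and 38.0%, inside the range of the other libraries, which reached 40.8% in skeletal muscle. This cut removes short regions, and more of them from longer lists. Enhancer-like regions of liver were the shorter class, with medians of 608 and 642 bp against 970 and 1302 bp for promoter-like ones. Equal lists therefore change class and length together and do not hold list length alone constant, here and in the values below.

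**Figure D1:**
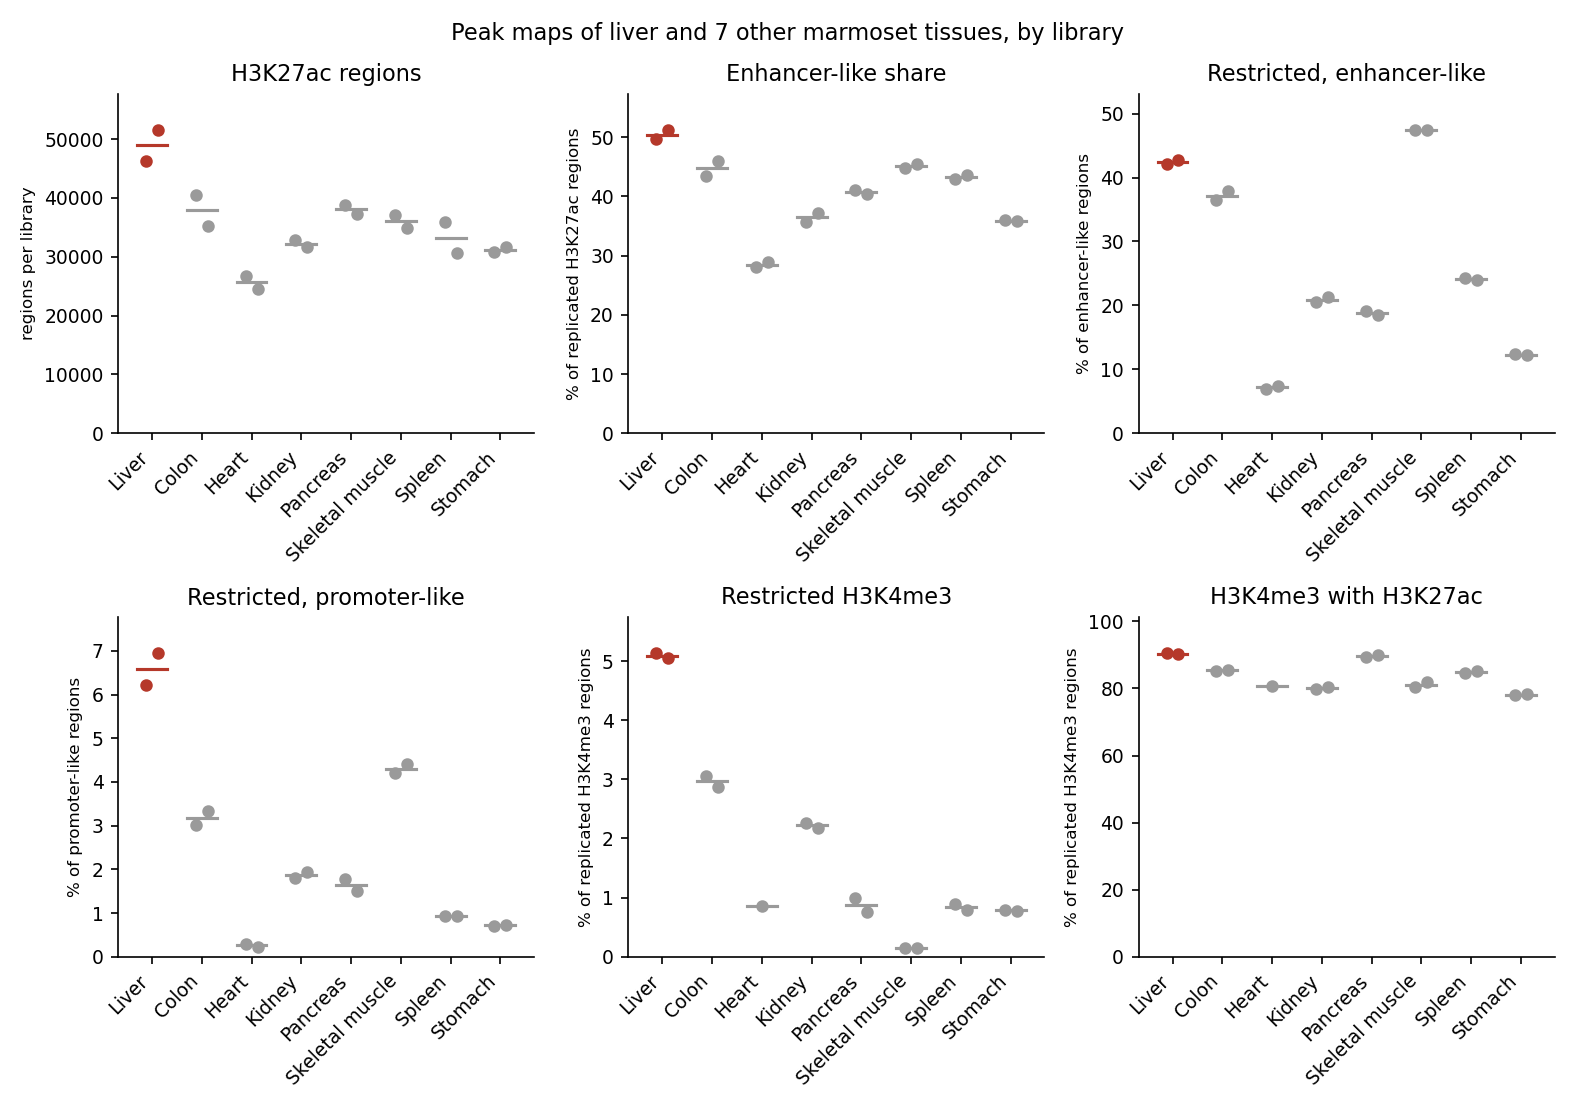
Points are single libraries, lines are tissue means, and liver is in red at the left of each panel. Panels give the number of H3K27ac regions per library and 5 shares in percent: enhancer-like among replicated H3K27ac regions, restricted among enhancer-like, promoter-like and H3K4me3 regions, and H3K4me3 regions that overlap H3K27ac. Liver is highest in every panel but the restricted enhancer-like share, where skeletal muscle stands above it.

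Regions found in no library of another tissue are called restricted. Over all 16 H3K27ac libraries 30.1% of the enhancer-like regions and 2.60% of the promoter-like ones met this rule. In liver 7626 of 18083 enhancer-like regions (42.2%) and 7619 of 17794 (42.8%) did so, against 24.0 ± 14.02% in the other tissues (SD, n = 7). Liver ranked second after skeletal muscle, whose libraries reached 47.5%, and the other tissues ran down to 6.90% in heart (difference 18.5 points, exact permutation p = 0.375, adjusted p = 0.477). The liver excess was 13.1 points with lists of equal length.

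Restricted promoter-like regions were few but had their highest share in liver. They numbered 1140 of 18359 (6.21%) and 1176 of 16943 (6.94%) in the liver libraries, against 1.84 ± 1.44% in the other tissues (SD, n = 7). Other libraries ranged from 0.230% in heart to 4.41% in skeletal muscle, below both liver libraries (difference 4.73 points, exact permutation p = 0.125, adjusted p = 0.292). Liver was still above every other library with lists of equal length, at 4.26% and 4.29% against at most 3.36% in skeletal muscle. The difference there was 2.64 points.

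H3K4me3 at restricted promoter-like regions was mostly restricted too. In replicate 1, 918 of the 1140 had H3K4me3 in liver alone, and 222 (19.5%) had it in at least 1 other tissue without its acetylation. In replicate 2 the counts were 991 and 185 (15.7%). The share with H3K4me3 elsewhere was between 20% and 78.6% in the libraries of other tissues, above both liver values. Of the liver regions, 34 and 23 had H3K4me3 in all 7 other tissues. The converse state, an enhancer-like region of liver with H3K4me3 in another tissue, was found for 6.03% and 5.72% of enhancer-like regions, against 7.55% to 43.4% in the other libraries. It was rare where the acetylation was restricted, at 0.511% and 0.486%, and made up 10.1% and 9.63% of shared enhancer-like regions.

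Counting the tissues that shared each region gave opposite shapes for the classes. Liver enhancer-like regions were found in a mean of 1.51 and 1.49 other tissues, and promoter-like regions in 5.50 and 5.48. One other tissue shared 20.7% of enhancer-like regions in each liver library, and the share was lower with each further tissue, down to 2.16% and 2.07% in all 7. The other tissues had 8.70 ± 6.17% of enhancer-like regions in all 7 partners (SD, n = 7), and no tissue mean was under 3.61%. For promoter-like regions 57.9% and 58.9% in liver were found in all 7, against 73.0 ± 5.33% in the other tissues, with tissue means from 65.6% to 80.9%.

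**Figure D2:**
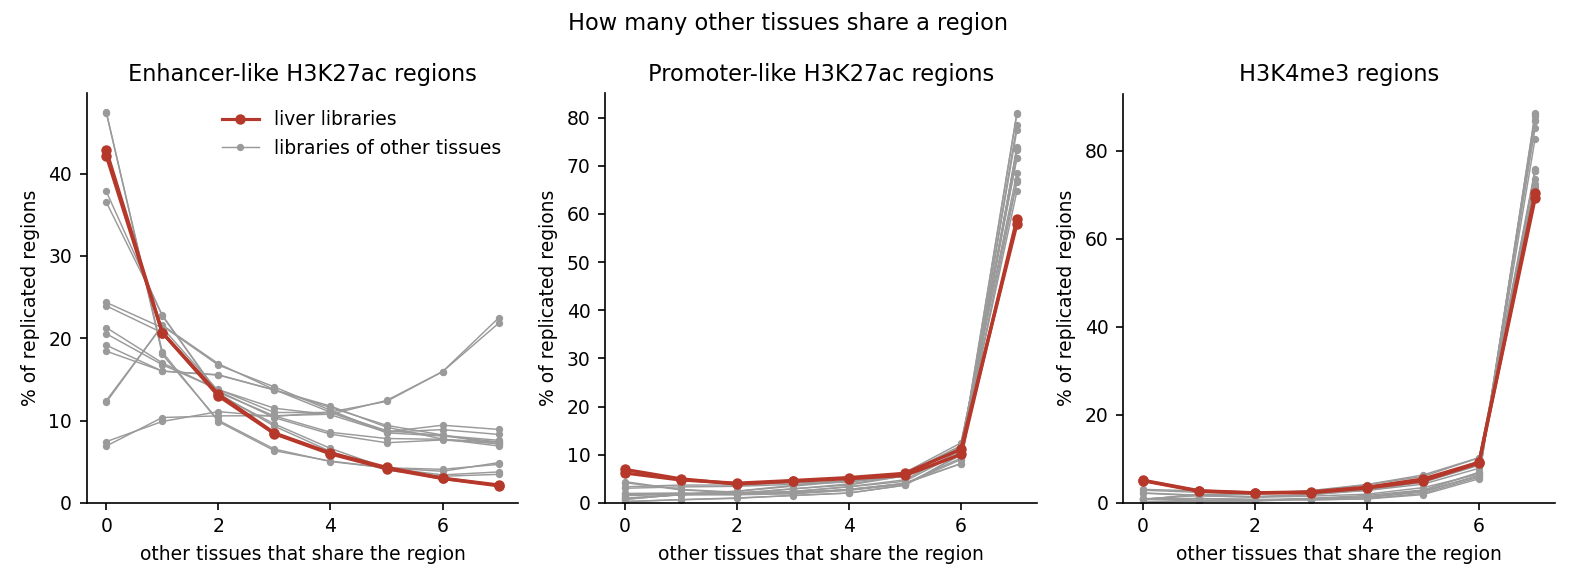
The x axis is the number of other tissues with an overlapping region of the same mark, and the y axis is the percent of replicated regions of a library. Liver libraries are red and the others grey. The liver curve for enhancer-like regions starts at 42.2% and 42.8% with 0 other tissues and ends at 2.16% and 2.07% with 7, and the liver promoter-like curve ends at 57.9% and 58.9%, below the other libraries.

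Widely shared liver regions were longer. An overlap of 1 bp was enough for sharing and a longer region has more bases to overlap, so length and sharing are not independent measures. Enhancer-like regions in all 7 other tissues had median lengths of 818 and 965 bp, against 554.5 and 573 bp for restricted ones. Promoter-like regions in all 7 measured 1125 and 1478 bp, and restricted ones 869 and 850.5 bp. Between these ends the promoter-like medians of replicate 1 were lower, 656 to 704 bp in regions shared with 2 to 6 tissues, so length did not climb steadily with sharing.

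Restriction declined with length among enhancer-like regions. Because 1 bp of overlap counted as sharing, a longer region had more bases at which to be found elsewhere. How much of the decline comes from this was not tested. Of those between 300 and 500 bp, 48.3% and 50.7% were restricted to liver. Between 500 and 1000 bp the shares were 43.0% and 42.6%, between 1000 and 2000 bp they were 32.7% and 34.2%, and between 2000 and 4000 bp they were 21.6% and 24.5%. Skeletal muscle had a higher mean than liver in the first 3 of these classes, up to 53.5%. Promoter-like regions differed between the liver libraries in the shortest class. There 268 of 3274 regions of replicate 1 (8.19%) and 260 of 1015 of replicate 2 (25.6%) were restricted, a similar count over unlike totals. Both liver libraries were above every other library for promoter-like regions under 500 bp, from 500 to 1000 bp (6.06% and 9.34%) and from 1000 to 2000 bp (5.18% and 4.15%). From 2000 to 4000 bp the liver shares of 6.35% and 4.92% overlapped the other libraries.

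Position relative to promoters was measured as the gap from an enhancer-like region to the nearest H3K4me3 region of the same tissue. The median gap was 19635 and 20051 bp in liver, against 20743 ± 3168 bp in the other tissues (SD, n = 7), a difference inside their spread (log2 -0.05, exact permutation p = 0.625, adjusted p = 0.673). Its sign turned under 4 other settings and without H3K4me3 replicate 2 of liver, where it was 0.17.

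Restricted enhancer-like regions of liver lay farther from H3K4me3 than shared ones, by medians of 23041 and 23118 bp against 17219 and 17753 bp. The contrast had this direction in all 8 tissues and was smallest in liver. On the log2 scale it was 0.40 in liver, against 1.06 ± 0.35 in the other tissues (SD, n = 7), which ranged from 0.59 to 1.70 (difference -0.66, exact permutation p = 0.25). With lists of equal length liver was again lowest, at 0.53 against 0.82 to 1.70 (difference -0.62, exact permutation p = 0.25).

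Near promoters, restriction was high in liver. Within 2 kb of H3K4me3, 33.2% and 35.6% of liver enhancer-like regions were restricted, above every other library and against a mean of 14.05 ± 10.8% in the other tissues (SD, n = 7). The highest of those, skeletal muscle, had 31.7%. From 2 to 10 kb the liver shares were 40.4% and 40.3%, from 10 to 50 kb 42.8% and 43.1%, and from 50 to 200 kb 44.97% and 45.5%. Beyond 200 kb they were 58.8% and 60.2%, against 41.5 ± 15.7% in the other tissues (SD, n = 7). In all classes beyond 2 kb the liver values overlapped those of other tissues.

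**Figure D3:**
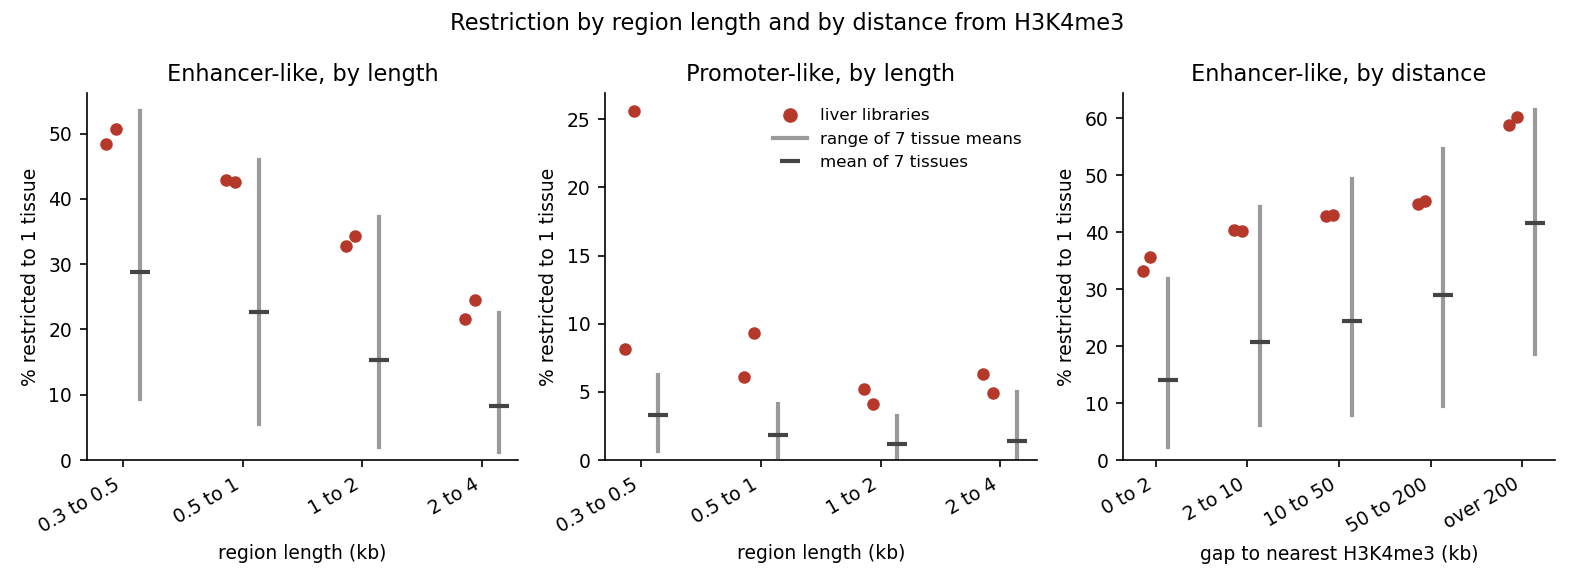
Each panel gives the percent of regions restricted to 1 tissue, by region length in kb for enhancer-like and promoter-like regions and by the gap in kb to the nearest H3K4me3 region. Red points are the liver libraries, grey bars span the means of the 7 other tissues and dark ticks are their overall mean. Both liver points lie above the grey bars within 2 kb of H3K4me3 and for promoter-like regions up to 2 kb long.

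The tissues that shared liver regions were ranked next. Enhancer-like regions of liver were most often found in pancreas (23.3%, library pairs from 21.7% to 24.9%) and kidney (20.6%, 19.96% to 21.1%). Colon followed with 17.7% (16.4% to 19.0%), stomach with 16.2% (15.5% to 16.7%) and spleen with 16.005% (13.95% to 18.2%). Skeletal muscle had 13.3% (12.6% to 14.02%) and heart 10.02% (9.67% to 10.4%). Pancreas, kidney and heart did not overlap their neighbours in this order. Colon, stomach and spleen overlapped each other, and the lowest spleen pair reached into the range of skeletal muscle.

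The order moved with the length of the lists. With the 24000 longest regions of each library, kidney came first at 27.4% (26.2% to 28.6%) and overlapped pancreas at 25.5% (23.9% to 27.2%). Stomach followed at 20.6%, colon at 19.4%, spleen at 17.0%, skeletal muscle at 15.6% and heart at 14.2%. These values of equal lists were added after the data were examined.

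Every partner shared promoter-like regions of liver far more often, from 67.7% in skeletal muscle to 80.2% in pancreas. Promoter-like sharing exceeded enhancer-like sharing by 56.3 ± 2.61 points (SD, n = 7 partners), in 7 of 7 partners and within 53.1 to 59.5 points. Promoter-like regions of liver were also longer than enhancer-like ones. Under the alternatives that kept all libraries, the central 300 bp of regions among them, the mean difference ran from 53.4 to 60.5 points. A two-sided exact sign-flip permutation test over partners gave p = 0.0156, the smallest it allows. All 7 differences rest on the same 2 liver libraries and the same division of their regions, so the partners are not independent and this p is too small. Pancreas and heart, the ends of the enhancer-like order, had differences of 56.9 and 59.5 points.

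**Figure D4:**
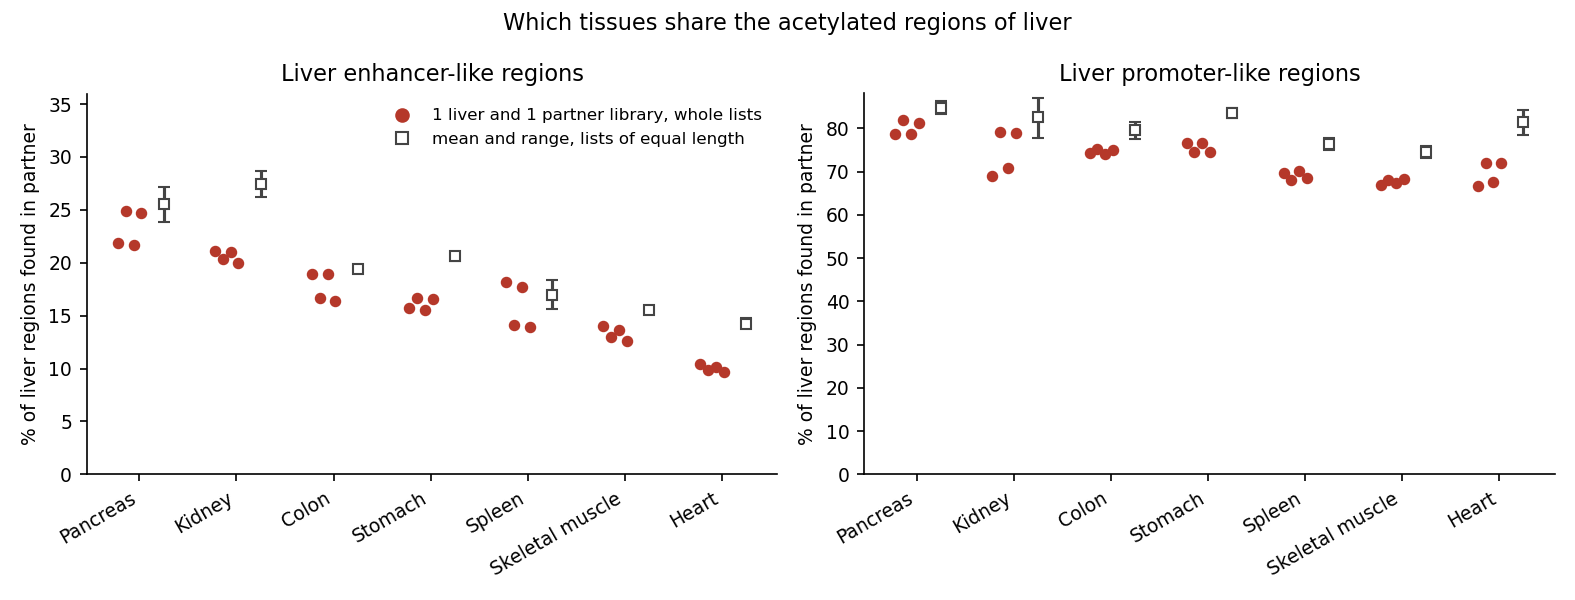
The y axis is the percent of liver H3K27ac regions that a partner tissue shares, for enhancer-like regions on the left and promoter-like regions on the right. Red points are the 4 pairs of a liver and a partner library, and open squares with bars are the mean and range of the same pairs with lists of equal length. Pancreas leads for whole lists in both panels, and kidney leads for enhancer-like regions with equal lists.

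Seen from the partners, the order differed. Of heart enhancer-like regions 58.6% were found in liver, of kidney 52.8%, of pancreas 48.6%, of stomach 42.1%, of spleen 40.5%, of colon 27.8% and of skeletal muscle 25.02%. Heart, which shared the fewest liver regions, had the largest part of its own in liver, beside the shortest H3K27ac lists of the series (a mean of 25640 regions).

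Regions shared with a single partner gave a sharper picture. Of the 3737 and 3678 liver enhancer-like regions with 1 other tissue, kidney was that tissue for 26.4% and 26.9%, and pancreas for 22.5% in each library. Skeletal muscle had 15.1% and 14.7%, colon 14.8% and 14.9%, spleen 12.7% and 12.8%, stomach 5.51% and 5.33%, and heart 2.97% and 3.02%. With lists of equal length kidney had 34.0% and pancreas 18.4%. Promoter-like regions with 1 partner had kidney for 28.3% and 29.5%, and pancreas for 22.7% and 22.0%.

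Liver, with the longest H3K27ac lists, was in turn the most frequent lone partner for enhancer-like regions of kidney, and also of spleen, pancreas and skeletal muscle. For promoter-like regions of skeletal muscle, heart was more frequent (33.6% and 33.8%) than liver (26.0% and 27.9%). No value with lists of equal length is given for this direction. Of the 1347 and 1340 kidney enhancer-like regions with 1 other tissue, liver was that tissue for 50.6% and 51.0%. For spleen the shares were 43.2% and 42.3%, for pancreas 38.2% and 38.7%, for skeletal muscle 29.7% and 29.4%, for colon 20.3% and 20.1%, for heart 14.4% and 14.8%, and for stomach 6.86% and 7.36%. Where a liver enhancer-like region was found in 6 other tissues, the absent one was mostly colon (33.1% of 540 and 32.1% of 526) or skeletal muscle (30.4% and 32.9%). Pancreas was absent from 1.48% and 1.90% of them and kidney from 4.07% and 4.18%.

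Enhancer-like regions of liver often had a neighbour. Within 12 kb of another lay 69.3% and 68.7% in liver, against 59.9 ± 7.11% in the other tissues (SD, n = 7), whose libraries reached 71.5% (difference 9.05 points, exact permutation p = 0.25, adjusted p = 0.389). With lists of equal length the sign turned, with liver at 48.4% and 45.8% and a difference of -4.34 points. Restricted regions had a restricted neighbour within 12 kb in 57.4% of cases in each liver library, against 40.3 ± 13.5% (SD, n = 7) and a highest library of 57.4% in skeletal muscle (difference 17.0 points, exact permutation p = 0.375, adjusted p = 0.477). The difference was 0.350 points with equal lists.

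Replicated regions of both liver libraries were merged to 31757 regions over 43.6 Mb. They held 15471 enhancer-like regions (48.7%), of which 6386 (41.3%) were restricted and covered 6.16 Mb, and 973 restricted promoter-like regions. Joined at 12 kb, the restricted enhancer-like regions formed 4565 groups, of which 1269 had at least 2 regions, 381 at least 3 and 37 at least 5. Groups covering 5 kb or more numbered 42 in liver (0.920% of groups), 34 in skeletal muscle (1.01%) and 12 in colon (0.397%). Skeletal muscle, with 3377 groups in all, had 41 of at least 5 regions. Groups of at least 5 held 3.13% of the restricted regions in liver, against 4.87% in skeletal muscle and 0.929% in colon.

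The 10 restricted groups of greatest coverage are named by position, ranked by the length that their restricted regions cover. The liver H3K27ac given for each group, here and below, counts every call in its span, shared and single-library calls included. By the rule that chose them, the restricted regions of a group hold no liver H3K4me3 and no H3K27ac of another tissue. Only the gaps between them could hold either. None of the 10 groups held H3K4me3 in liver or in any other tissue, and 8 of the 10 held no H3K27ac in any of the 14 other libraries. The same share over all restricted groups was not computed, so these counts are a description of the 10 alone. The first, on chromosome 15 (62790670 to 62810110), comprised 9 regions with 10.1 and 12.9 kb of H3K27ac in the liver libraries, 17.6 kb from the nearest liver H3K4me3. The second, on chromosome 7 (37755450 to 37765359), was compact, with 7.97 and 7.74 kb of H3K27ac over 9.91 kb, and lay 106 kb from H3K4me3. The third, on chromosome 6 (21419029 to 21451405), had 7.87 and 13.04 kb of H3K27ac over 32.4 kb, while its 6 restricted regions covered 7.68 kb. Between its restricted regions 5 other libraries had H3K27ac, at most 1.09 kb in spleen replicate 1. It was the one of these 3 whose liver libraries differed most.

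**Figure D5:**
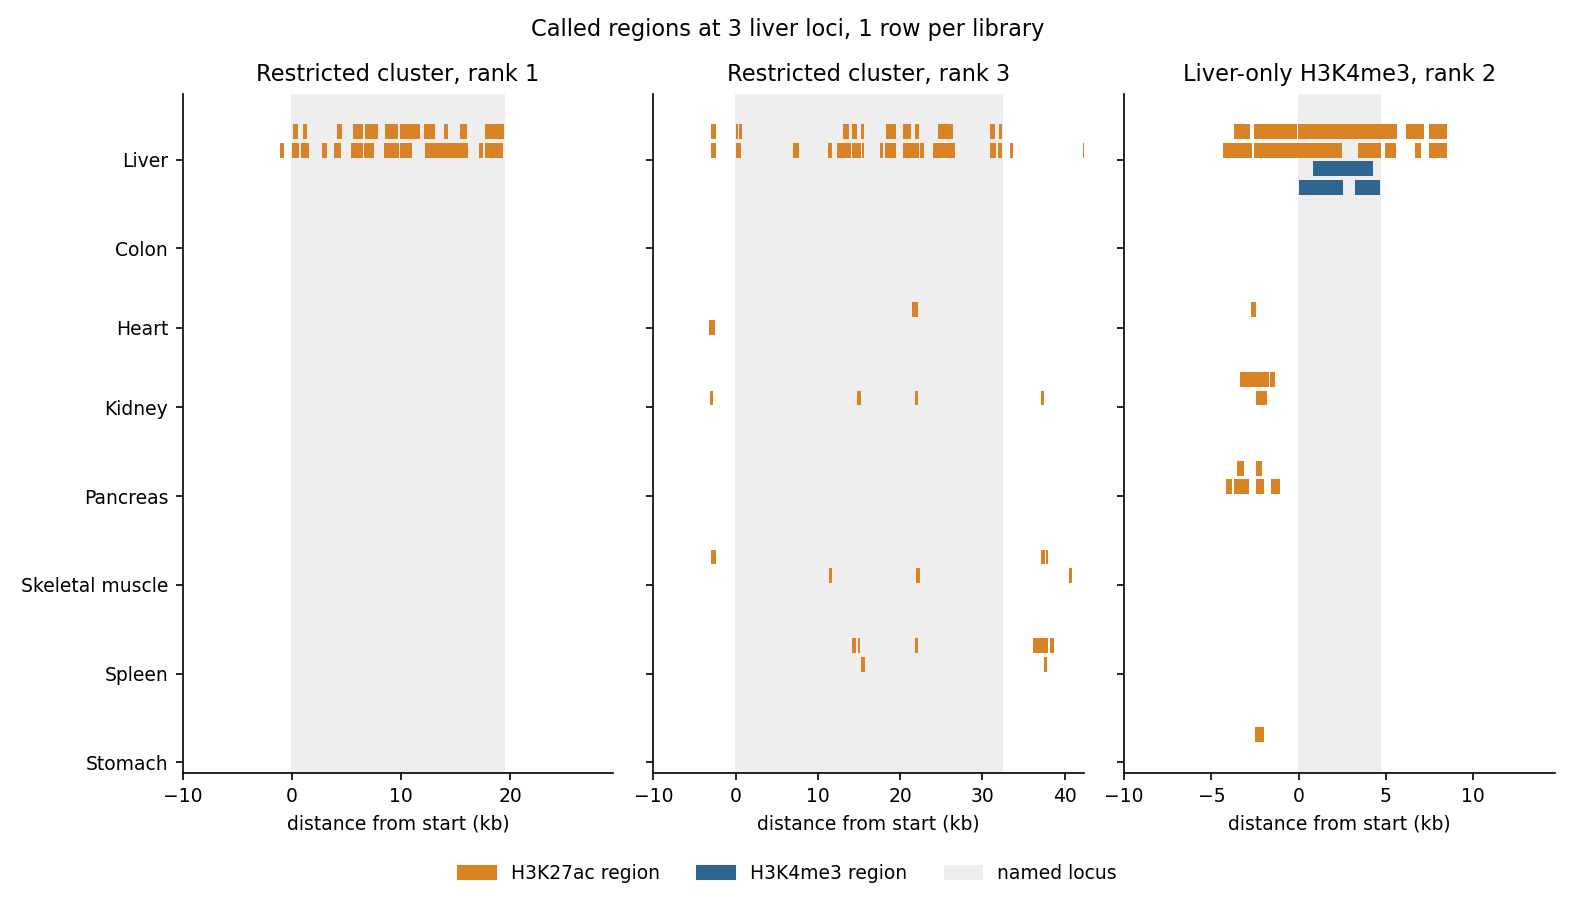
Called regions at the restricted enhancer-like groups of rank 1 (chromosome 15) and rank 3 (chromosome 6), and at the liver-only H3K4me3 region of rank 2 (chromosome 12), with 1 line per library and liver on top. The x axis is the distance in kb from the start of the shaded locus, orange bars are H3K27ac and blue bars H3K4me3. The rank 1 group is filled in both liver H3K27ac libraries and empty in all others, the rank 3 group has short regions in 5 other libraries, and the H3K4me3 region at the right is in both liver libraries alone.

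Some groups lay close to promoters and others far from any. The fourth, on chromosome 10 (75568151 to 75581037), had 7.29 and 4.11 kb of H3K27ac and was 1.27 kb from H3K4me3. The tenth, on chromosome 11 (13975478 to 13986292), had 5.93 and 5.34 kb and was 1.14 kb away. In contrast the fifth, on chromosome 5 (33860456 to 33867732), with 6.83 and 3.37 kb, lay 813 kb from the nearest liver H3K4me3. The seventh, on chromosome 4 (61604384 to 61617818), had 5.77 and 5.89 kb at 290 kb, and 2 other libraries had at most 0.542 kb there, in pancreas replicate 1. The remaining groups were on chromosomes 7 (92145299 to 92158404), 16 (69257260 to 69276539) and 13 (11500245 to 11508337). They had 6.13 and 7.92 kb, 6.66 and 4.47 kb, and 6.22 and 3.39 kb of liver H3K27ac.

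Among all enhancer-like groups, restricted or not, the one with the greatest coverage was on chromosome 22 (27781227 to 27800465). It had 13.4 and 11.7 kb of H3K27ac in liver, and 4 other libraries held at most 2.76 kb, in skeletal muscle replicate 2. The second, on chromosome 6 (134303720 to 134336861), had 14.2 and 13.99 kb in liver and was present in 11 other libraries, with up to 6.24 kb in spleen replicate 1. Its span also held 0.453 kb of H3K4me3 in liver replicate 2, and 0.3 kb in 1 library of another tissue. The third was the chromosome 15 group described above. The fourth, on chromosome 16 (353329 to 383544), had 11.4 and 10.9 kb in liver and was present in all 14 others, with up to 9.77 kb in pancreas replicate 2. The fifth, on chromosome 6 (21416005 to 21461970), contained the restricted group of rank 3 and had 8.92 and 14.6 kb.

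Most chromosomes held a part of the liver map inside the range of the other libraries. The share of enhancer-like regions lay outside the 14 other libraries for 3 of 24 chromosomes (12.5%). Chromosome 8 held 3.88% and 4.05% in liver, against 3.03 ± 0.36% in the other tissues (SD, n = 7) and at most 3.52%. Chromosome 6 held 5.09% and 5.13%, against at most 4.997%, and chromosome 5 held less in liver, 8.129% and 8.070%, against at least 8.131%. With lists of equal length none of the 3 stood outside the others, and chromosome 8 held 3.45% and 3.58% in liver against up to 3.74%. Within the liver map the restricted share was highest on chromosome X (52.3% and 52.6%) and chromosome 8 (49.4% and 50.3%) and lowest on chromosome 22 (31.2% and 31.1%).

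H3K4me3 lists of liver were close in length to those of the other tissues. They held 20826 and 23787 regions, against 19978 ± 1556 (SD, n = 7), and other libraries reached 24424 (log2 0.17, exact permutation p = 0.25, adjusted p = 0.389). Median length was 916 and 932 bp in liver, against 812 ± 57.9 bp (SD, n = 7) and up to 964 bp in a library (difference 112 bp, exact permutation p = 0.125, adjusted p = 0.292). Equal lists had medians of 1118 and 1264 bp in liver, against up to 1274 bp in a colon library, a difference of 226 bp. Here too the cut on length leaves longer regions in longer lists.

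Restricted H3K4me3 was commoner in liver than in any other tissue. Over all 15 H3K4me3 libraries 1.87% of regions were restricted. Liver had 1005 of 19591 (5.13%) and 947 of 18771 (5.05%), against 1.24 ± 0.98% in the other tissues (SD, n = 7), whose libraries ran from 0.146% in skeletal muscle to 3.06% in colon. All 13 were below both liver libraries (difference 3.84 points, exact permutation p = 0.125, adjusted p = 0.292), and so they were with lists of equal length (4.29% and 4.17% in liver, at most 2.38% elsewhere). Without the replicate filter the difference was 6.06 points, and it was 9.16 points without liver replicate 1 and 2.52 points without liver replicate 2. At the other end 69.2% and 70.4% of liver H3K4me3 regions were found in all 7 other tissues, against 81.0 ± 6.79% (SD, n = 7).

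Nearly all H3K4me3 of liver was acetylated in liver. H3K27ac overlapped 90.4% and 90.3% of its H3K4me3 regions, against 82.8 ± 3.97% in the other tissues (SD, n = 7) and 78.1% to 89.9% in their libraries (difference 7.54 points, exact permutation p = 0.125, adjusted p = 0.292). Equal lists gave 87.6% and 87.5% in liver, against at most 86.2% elsewhere, and the difference was 4.51 points. Without H3K27ac replicate 2 of liver, which leaves liver 1 H3K27ac library against 2 in each other tissue, the difference was -3.12 points. Restricted H3K4me3 regions were acetylated in 95.5% and 94.9% of cases and those found in all 8 tissues in 94.0% in each library. Regions without liver acetylation were short, 498 and 580 bp against 1027 and 1201 bp for acetylated ones. They numbered 1872 and 1818, and 57.4% and 56.8% of them had H3K27ac in another tissue.

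Restricted H3K4me3 regions were shorter than those present in all 8 tissues, with medians of 591 and 842 bp against 1164 and 1316 bp. In the merged set of 18139 liver H3K4me3 regions, 832 (4.59%) were restricted and 800 of these (96.2%) overlapped liver H3K27ac. Another tissue had H3K27ac at 355 of the 832 without the methylation. Both marks were limited to liver at 450.

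The 5 longest restricted H3K4me3 regions measured between 4.53 and 4.84 kb. On chromosome 12 (32120271 to 32124938), the region had 3.46 and 4.004 kb of H3K4me3 and 4.67 and 3.77 kb of H3K27ac in liver, and neither mark in any other library. On the same chromosome (82106349 to 82110893), a further region had 4.24 and 4.47 kb of H3K4me3 and a shorter stretch of 2.14 and 2.13 kb of H3K27ac in liver, and neither mark elsewhere. Other tissues had some H3K27ac at the remaining 3. On chromosome 11 (128274338 to 128279174) 2 other libraries had at most 0.578 kb, on chromosome 4 (161222500 to 161227123) 2 had at most 2.09 kb, and on chromosome 5 (95036298 to 95040825) 6 had at most 2.84 kb.

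Most of the longest H3K4me3 regions of liver were widely present in other tissues. Of the 5 longest, 2 lay on unplaced sequences of the assembly, at 10.1 and 6.38 kb, and were present in 11 and 12 other libraries. A region on chromosome 15 (56835734 to 56843121) and one on chromosome 6 (143314838 to 143321669) were present in all 13. The first had 6.25 and 7.32 kb in liver, against 2.40 to 5.90 kb in the others, and the second had 5.47 and 6.13 kb in liver, against 0.828 to 5.97 kb. The region on chromosome 10 (120196403 to 120203200) had 3.98 and 6.72 kb of H3K4me3 in liver and was found in 1 other library, with 2.29 kb.

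Few regions were missing from liver alone. H3K27ac was present in all 14 other libraries and in neither liver library at 12 regions. As the tissue without, skeletal muscle had 244 such regions, colon 127, spleen 109, heart 31, stomach 10, kidney 8 and pancreas 2. On the log2 scale of counts plus 1, liver was 1.29 below the other tissues (log2 -1.29, exact permutation p = 0.875, adjusted p = 0.875), but 0.38 above them with lists of equal length and 0.71 above them without liver replicate 2. For H3K4me3 the count was 3 in liver, against 0 to 91 in the other tissues (log2 -1.41, exact permutation p = 0.625, adjusted p = 0.673), where 91 belongs to heart with its single library.

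The 5 longest acetylated regions missing from liver spanned 2.61 to 4.12 kb. The longest, on chromosome 11 (90316627 to 90320742), had 0 kb in both liver libraries, against 0.321 to 3.21 kb in the 14 others, and no H3K4me3 in any tissue. The next, on chromosome 2 (148406487 to 148410509), had 0 kb in liver and 0.527 to 3.41 kb elsewhere. On chromosome 15 (9699459 to 9702368) the other libraries had 0.839 to 2.65 kb, and on chromosome 1 (26366181 to 26368835) 0.480 to 2.41 kb. The fifth, also on chromosome 1 (104323332 to 104325936), had H3K4me3 in every library. It had 0.849 and 1.74 kb of H3K4me3 in liver and 0.832 to 1.85 kb in all 13 other libraries, but no H3K27ac in liver, against 0.3 to 2.35 kb in the others.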

How the data were processed

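Per the labels' protocols, antibody ab4729 served for H3K27ac and ab8580 for H3K4me3 in bulk tissue, with an Illumina TruSeq DNA kit. MACS2 2.1.1.20160309, bedtools 2.26, SAMtools 1.3.1 and Bowtie 1.1.2 are named, with no role, in the submitters' processing notes. The authors deposited 1 peak list per ChIP library, so regions were called per library and not on pooled replicates. Only chromosome, start and end were used, and the build, calJac3, was read from the peak names. No region was shorter than 300 bp. The use made of inputs by the authors is not given in those sources.

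Titles gave each library its tissue, mark and number, and none was left out. Intervals and exact permutation tests were computed with numpy 2.4.6 under Python 3.11.15. Figures used matplotlib 3.10.9. The code was tested on simulated intervals. The planned log2 comparison of missing regions was made on counts plus 1, because some counts were 0. Benjamini-Hochberg adjustment covered 14 comparisons. The unplanned comparison of gaps was not adjusted. Named regions are the 10 restricted groups and 5 enhancer-like groups of greatest coverage, and the 5 longest regions each of restricted H3K4me3, all liver H3K4me3 and acetylated regions missing from liver. The members, classes and lists were chosen with earlier results of these data known.

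Alternatives were no replicate filter, an overlap of at least 50%, assembled chromosomes alone, lists of equal length, the central 300 bp of regions, H3K4me3 in every library of the tissue or of replicate 2 alone, restriction against tissues with both libraries, 5 and 25 kb for joining, a replicate block, libraries permuted singly, and each library left out, which also drops the replicate filter. No sequence was printed and no gene named, because a genome or annotation of calJac3 was not used here.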

Additional observations from a re-analysis of the deposited data

How the results depend on the processing

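Of 448 values of 15 tested results under the alternatives, 432 kept the direction and the side of 0.05, 10 turned in sign and 6 passed 0.05. For the 14 tissue comparisons the test over tissues cannot pass 0.05, so their side was fixed except with libraries permuted singly. Direction also leaves out size. Equal lists were cut on region length. With them the difference in enhancer-like share fell from 11.2 to 2.34 points, and that in restricted clustering from 17.0 to 0.350. The distance of enhancer-like regions to H3K4me3 turned to 0.13 with 50% overlap, 0.25 with lists of equal length, 0.0913 with H3K4me3 in every library and 0.0198 with that of replicate 2 alone. With equal lists clustering of enhancer-like regions turned to -4.34 points and the missing H3K27ac regions to 0.38. Why these 2 turned was not tested. Permuting libraries singly treats the 2 libraries of a tissue as separate samples, so its p-values are too small. Under it H3K27ac number (0.56, permutation p = 0.00833), H3K27ac length (78.7 bp, permutation p = 0.0333), the enhancer-like share (11.2, permutation p = 0.0167), the restricted shares of promoter-like regions (4.73, permutation p = 0.00833) and H3K4me3 (3.82, permutation p = 0.00952) and the acetylated share of H3K4me3 (7.36, permutation p = 0.00952) passed 0.05.

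Leaving a library out also dropped the replicate filter, so these ranges need not hold the main values. The main differences in restricted enhancer-like share (18.5 points) and in clustering of all and of restricted regions (9.05 and 17.0) lay above theirs. With each library left out in turn, differences ranged from 0.48 to 0.64 for H3K27ac number, 60.2 to 97.2 bp for its length, 6.63 to 13.7 points for the enhancer-like share, 10.9 to 16.8 and 2.82 to 6.88 points for the restricted enhancer-like and promoter-like shares, and 5.56 to 8.82 and 11.0 to 16.6 points for clustering of all and of restricted regions. They ranged from 0.07 to 0.26 for H3K4me3 number, 94.1 to 129 bp for its length, 2.52 to 9.16 points for its restricted share, and 52.4 to 59.3 points for the partner difference. Ranges that crossed 0 were -0.32 to 0.17 for the distance, -3.12 to 10.9 points for the acetylated share, -2.03 to 0.71 for missing H3K27ac and -2.40 to 0.22 for missing H3K4me3. The sign turned there without H3K4me3 replicate 2, H3K27ac replicate 2 (acetylated share and missing H3K27ac) and H3K4me3 replicate 1 of liver.

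The correlation of replicate deviations in 100 kb windows between liver and the other tissues ran from -0.05 to 0.11 for H3K27ac and 0.01 to 0.22 for H3K4me3, and was over 0.1 in 1 of 7 and 4 of 6 tissues. Not every pair was over 0.1 for either mark, so the numbers were not taken to pair the samples. Yet H3K4me3 replicate 2 had more regions than replicate 1 in every tissue with both. The gap was smallest in kidney (21008 and 21046) and largest in skeletal muscle (16850 and 24424). Its median lengths were also greater in each, as in liver (916 and 932 bp) and pancreas (693 and 939 bp). Heart has replicate 2 alone for this mark, so its H3K4me3 values carry this shift in full. A replicate block gave 0.16 for H3K4me3 number (exact permutation p = 0.375) and 56.2 points for the partner difference (exact permutation p = 0.0156), and turned no sign. The tissue comparisons could not pass 0.05 under it. The block and the single libraries could not be run for missing regions, and list numbers are fixed with equal lists. Unknown depth limits every comparison of list length, and a region absent from a list may lie under the calling threshold.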
